A study of Mus musculus with 24 samples.

Results

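Gene expression in the left brain hemisphere was compared between wild type mice given lipopolysaccharide (LPS) and wild type mice given phosphate-buffered saline (PBS). All animals were C57BL/6J mice aged 3 months. On each of 4 consecutive days they received 100 µl into the peritoneum, which held either LPS of Salmonella abortus equi at 1 µg per g body weight per day or PBS alone. The comparison uses 12 of the 24 libraries of the series, 6 animals that received LPS and 6 that received PBS. The other 12 libraries are labelled as Nox2 knockout mice under the same injections, called knockout here, and they serve as a second set of animals for the genes found in wild type. The wild type animals carry no deletion or transgene in the labels, and the time from the last injection to tissue collection is not given in the sources used here. All 55421 genes of the deposited table were considered, and 14380 passed the filter on low counts and were tested. Each library was made from whole hemisphere RNA, so a value is a sum over neurons, glia, vessels, blood in the vessels and any immune cells that had entered.

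LPS is the outer membrane lipid of gram-negative bacteria and is sensed by Toll-like receptor 4 together with CD14 and MD-2. Injected into the body cavity, it acts on the brain largely through the vessel wall, perivascular macrophages, the choroid plexus and circulating cytokines. Endothelial cells and microglia respond early, and astrocytes follow. Sustained exposure is known to alter transport across the blood-brain barrier, iron handling, lipid metabolism and neurotransmission, and these functions, rather than the cytokine and complement genes, are described here.

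The libraries held 3080539 to 4257685 counts after LPS and 2340184 to 5256169 counts after PBS. A two-sided exact permutation test of the difference in mean depth gave p = 0.435. Levels are given as CPM, counts scaled to a common library total after TMM normalisation, and a level of 1 CPM stands for 2.34 to 5.26 counts. The tissue carried the markers of a whole hemisphere: 48 presynaptic, 49 myelin, 44 astrocyte and 41 endothelial genes of the lists used here were tested. Immune genes moved with LPS. Of 81 listed microglia and macrophage genes 70 passed the filter on low counts, and 64 of these rose and 2 fell. The summed level of the 70 genes was 709 to 813 CPM after PBS and 2034 to 2695 CPM after LPS. With a filter at a mean of 10 CPM instead, 30 were called higher and 0 lower. Of 21 listed neutrophil genes 10 passed the filter on low counts, and all 10 were higher. Low genes can pass that filter through the LPS libraries alone, in both lists, so nothing is read from the share called among these 10. With the 12 wild type libraries alone 5 were called higher. Their summed level was 12.5 to 24 CPM after PBS and 204 to 821 CPM after LPS. Of 20 listed lymphocyte genes 5 were tested, 2 rose and 1 fell, with summed levels of 25.5 to 31.0 and 42.2 to 63.3 CPM. Of 11 listed erythroid genes 6 were tested and 4 fell, and their summed level was 81.6 to 136 CPM after PBS and 49.9 to 67.7 CPM after LPS. The part of immune and blood cells in the changes of other genes was not tested. Some libraries stood apart in other ways. PBS replicate 4 and LPS replicates 1 and 2 had the lowest mean log2 levels of 19 olfactory genes, -0.93, -0.81 and -0.94 against the PBS mean, while the other 9 libraries lay between -0.01 and 0.42. LPS replicates 4 to 6 had the lowest mean log2 levels of mitochondrially encoded messengers. Results were recomputed without each library in turn and without each of these sets together. Leaving out LPS replicates 4 to 6 leaves 3 LPS libraries.

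After LPS, 1572 genes were higher, which is 10.9% of the genes tested, and 1024 were lower, which is 7.12% (edgeR quasi-likelihood test, adjusted p under 0.05). The rises and the falls differed in size. The median rise was 0.68 on the log2 scale, a level 59.9% higher, with quartiles of 0.35 and 1.26. The median fall was -0.26, a change in level of -16.5%, with quartiles of -0.37 and -0.20. Of the 1024 falls, 896 (87.5%) were smaller than 0.5 on the log2 scale and 464 were smaller than 0.25. Of the rises, 605 (38.5%) were smaller than 0.5. Changes larger than 1 were counted for 518 rises (3.6% of tested genes) and 14 falls (0.0974%). Without LPS replicates 1 and 2, 25 falls were larger than 1 and 814 of the 1024 falls were called again. Without LPS replicates 4 to 6, 1085 genes were called higher and 551 lower, with 23 falls larger than 1, and 437 of the 1024 falls were called again. With the 12 wild type libraries alone 1368 rose and 820 fell, and 809 of the 1024 falls were called again. The median log2 fold change of all tested genes was -0.01.

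**Figure D1:**
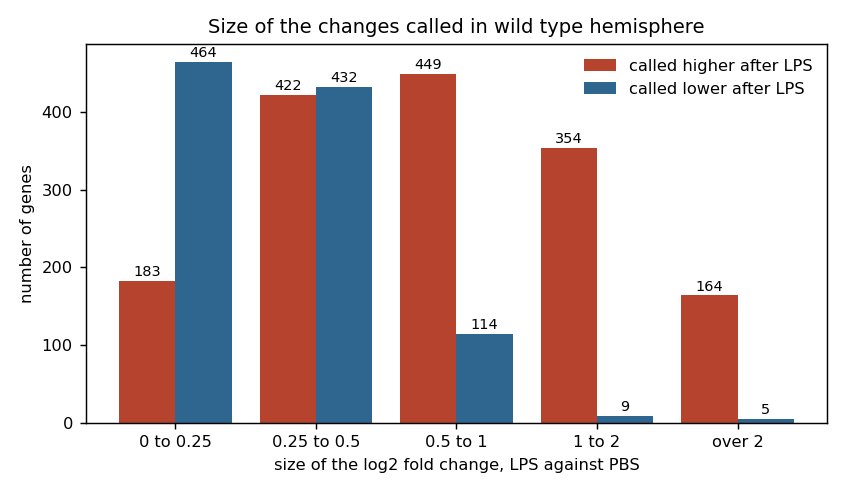
Number of genes called higher (red) or lower (blue) after LPS, by the size of the log2 fold change. Most falls lie in the bins under 0.5, with 464 and 432 genes, while 518 rises and 14 falls exceed 1.

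In most of the falls the groups overlapped. In 268 of the 1024 genes called lower, every LPS library lay below every PBS library, and over all tested genes, called or not, this held for 2.06%. In 831 of the genes called higher, every LPS library lay above every PBS library, and over all tested genes this held for 5.88%. The genes called lower together took 16.3 to 17.2% of a library's counts after PBS (median 16.8%) and 13.8 to 14.7% after LPS (median 14.3%). The genes called higher took 8.48 to 9.09% after PBS (median 8.96%) and 11.6 to 13% after LPS (median 12.4%). Since these genes were chosen by their change in the same libraries, the shares describe its size and are no test of it.

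The knockout libraries are separate animals, but they entered the same fit and so shared in the filter and in the estimate of the spread behind the wild type calls. Of the 1024 genes that fell in wild type, 920 (89.8%) had a negative LPS change in knockout, where 50.4% of all tested genes did. Of the 896 small falls, 816 (91.1%) were negative there. In knockout, 281 of the 1024 genes (27.4%) were called lower, against 3.82% of all tested genes, and 2 were called higher. Their median knockout change was -0.13, smaller in size than the -0.26 that chose them in wild type. The shares of all tested genes, here and in the separate fits below, do not allow for level. Of the 1024 genes, 492 are in the quintile of tested genes with the highest mean level. In knockout 11.6% of that quintile were called lower, with a median change of -0.05, and 0.70% of the quintile with the lowest level. The part of level in the knockout shares was not tested. Of the 1572 genes that rose, 1454 (92.5%) were positive in knockout and 855 (54.4%) were called higher there, against 7.05% of all tested genes, with a median of 0.44. Without LPS replicates 1 and 2 the shares with the same sign were 81.7% of the falls and 85.9% of the rises called then. Each genotype was also fitted alone. Of the 820 genes called lower in that wild type fit, 818 were tested in the knockout fit, where 740 (90.5%) were negative and 269 (32.9%) were called lower, against 4.51% of all genes tested there. Of the 1368 called higher, 1305 were tested in knockout, where 1222 (93.6%) were positive and 754 (57.8%) were called higher, against 7.03% of all genes tested there.

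A test of the difference in LPS change between the genotypes called 1 of the 14380 genes, Cybb. At an unadjusted p under 0.05 it found 1407 genes. This is more than the share of about 0.05 of the tested genes that is expected without any difference. Cybb apart, a gene called in wild type and not in knockout is neither shown to differ between them nor shown to be alike. Cybb encodes NOX2, the subunit that the knockout label names. In wild type it was at 0.853 to 2.50 CPM after PBS (median 1.43) and at 15.7 to 34 CPM after LPS (median 24.8). In the libraries labelled knockout it was at 63.1 to 76.2 CPM after PBS (median 66.7) and at 67.5 to 77.3 CPM after LPS (median 72.0). All 12 knockout libraries thus lay above all 12 wild type libraries, and the level does not show a loss of the messenger. The altered part of the gene is not given in the sources used here, and whether these 3′ tags lie outside it was not tested.

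The genes that fell were highly expressed and long. When the tested genes were split into quintiles by mean level, the share called lower went from 1.46% in the lowest quintile to 3.03%, 5.25%, 8.76% and 17.1% in the highest. The share called higher stayed between 9.08% and 13.3%. A highly expressed gene has more counts, so a smaller change can be called in it. Gene span, the distance from first to last annotated base, gave a like order over all tested genes and within the highest quintile of level, and the other quintiles of level were not split by span. By quintile of span the share called lower was 4.77%, 5.32%, 5.81%, 6.99% and 12.7%, where the median span was 3.09, 10.5, 22.7, 47.2 and 136 kb. Within the highest quintile of level it was 11.1% in the shortest genes and 28.0% in the longest, and the share called higher went the other way, from 20.8% to 3.48%. In knockout the longest quintile of these highly expressed genes held 15.3% of genes called lower and 1.57% called higher, and the shortest quintile held 9.90% and 10.8%. The median span was 41.3 kb for the genes that fell, 18 kb for those that rose and 22.7 kb for all tested genes.

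**Figure D2:**
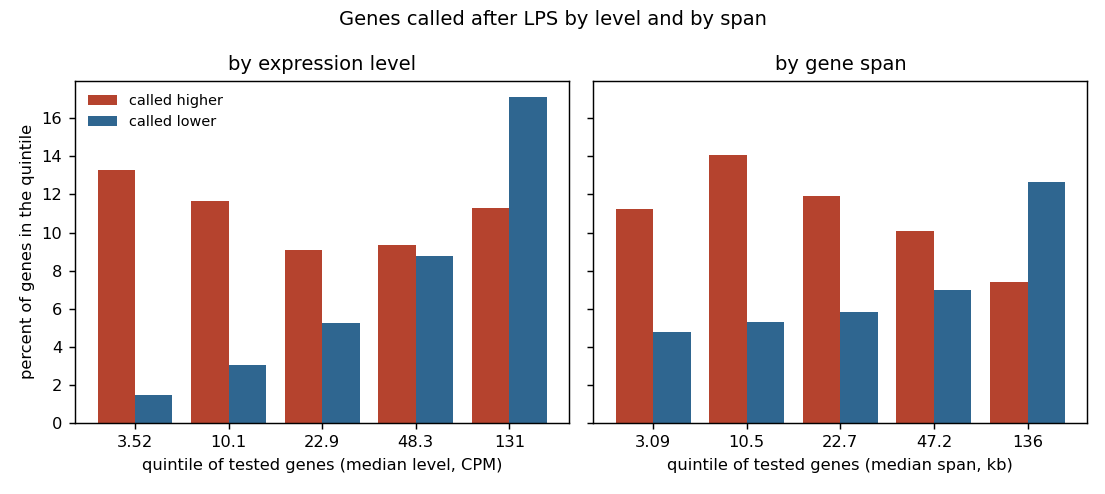
Percent of tested genes called higher (red) or lower (blue) after LPS in each quintile of mean level (left, with the median CPM of each quintile) and of gene span (right, with the median kb). The share called lower reaches 17.1% in the highest quintile of level and 12.7% in the longest quintile.

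Of the genes that fell, 264 are in any of the 56 gene lists used here, and of those that rose 485 are. The plot of gene lists orders those outside the immune response by their median log2 fold change. Lists of vessel, iron, antioxidant and ribosomal genes stood at the upper end, and lists of sterol synthesis, receptors, myelin and the neuronal cytoskeleton at the lower end. A list's count is to be read against the 10.9% higher and 7.12% lower among all tested genes. These shares do not allow for level or span. In the highest quintile of level 17.1% were called lower, and 28.0% of the longest genes of that quintile. Lists were not matched for level or span, and the part of either in a list's count was not tested. Small counts rest on single libraries: of 40 list counts of 1 to 3 members, 23 moved by more than 1.5 times when 1 library was left out, and of 57 larger counts 11 did.

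**Figure D3:**
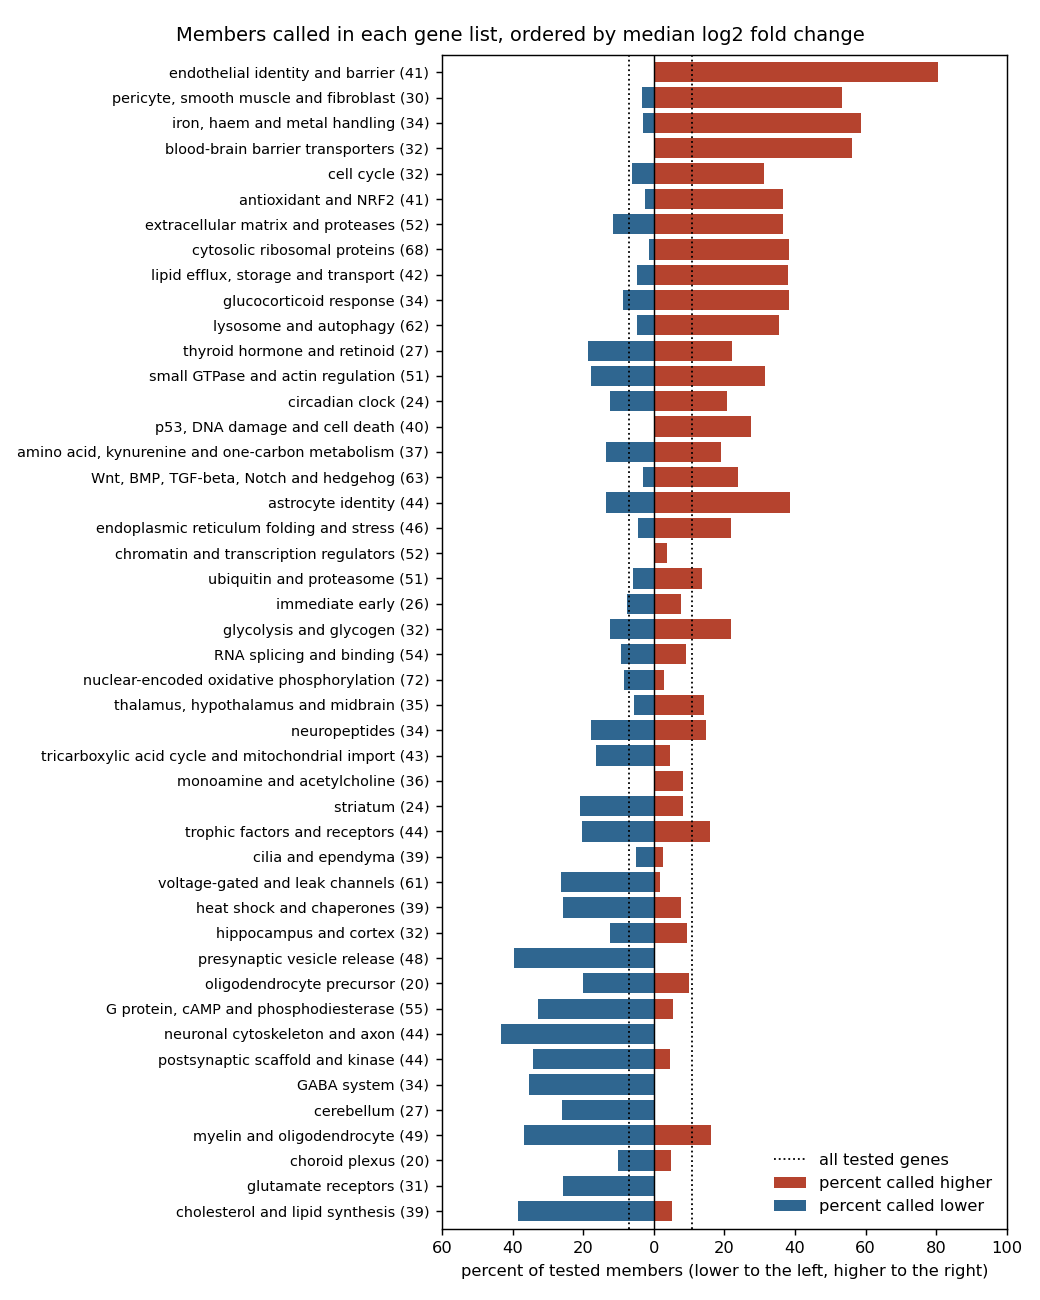
Percent of tested members called lower (blue, to the left) and higher (red, to the right) after LPS in each gene list with at least 20 tested members outside the immune lists, with the number tested in brackets. Dotted lines mark the shares among all tested genes, 7.12% lower and 10.9% higher.

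Genes of transmitter release fell. Of 48 tested presynaptic genes 19 fell and 0 rose, with a median log2 fold change of -0.10, and in knockout 14 fell and 0 rose. The summed level of the list was 17175 to 17474 CPM after PBS and 15415 to 16486 CPM after LPS. Stx1a and Snap25, which with synaptobrevin form the complex that fuses vesicles with the membrane, fell most. Stx1a stood at 71.1 to 83.1 CPM after PBS (median 74.9) and at 50.4 to 65.3 CPM after LPS (median 56.5), a log2 fold change of -0.40 ± 0.07 (SE, adjusted p = 1.9e-05). The groups did not overlap, and in knockout it changed by -0.36 (adjusted p = 0.00016). Snap25 was at 1807 to 1905 CPM after PBS (median 1879) and at 1187 to 1675 CPM after LPS (median 1461). Its LPS libraries 1 to 3 stood at 1558 to 1675 CPM and libraries 4 to 6 at 1187 to 1365 CPM, so that animals within the group differed by more than in the PBS group. The log2 fold change was -0.36 with all libraries and -0.20 without LPS replicates 4 to 6 (adjusted p = 0.0049). In knockout the change of Snap25 was -0.12 and was not called (adjusted p = 0.20). Unc13a, which primes vesicles, fell by 0.30 ± 0.06 on the log2 scale (adjusted p = 0.00031). Cplx2, a complexin that clamps and times fusion, went from 357 to 385 CPM (median 368) to 288 to 325 CPM (median 313), with a log2 fold change of -0.26 ± 0.05 (adjusted p = 9.8e-05) and no overlap. Syt1, the calcium sensor of fast release, changed by -0.19 ± 0.04 in wild type and by -0.23 in knockout. In bulk tissue fewer cells of a type and less RNA per cell cannot be told apart.

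On the postsynaptic side, 15 of 44 tested scaffold and kinase genes fell and 2 rose, with a median log2 fold change of -0.12. In knockout 11 fell and 0 rose. Camkk2, the kinase that activates CaM kinases and AMPK in response to calcium, was at 424 to 502 CPM after PBS (median 460) and at 315 to 400 CPM after LPS (median 379). Its log2 fold change was -0.34 ± 0.05 (adjusted p = 3.2e-06), the groups did not overlap, and the knockout change was -0.35 (adjusted p = 2.6e-06). Homer1, which links metabotropic glutamate receptors to calcium stores, fell by 0.33 ± 0.08 in wild type, while its knockout change of -0.05 was not called (adjusted p = 0.80). Ppp3ca, the catalytic subunit of calcineurin and among the most abundant messengers that fell, went from 2713 to 3001 CPM (median 2864) to 2455 to 2581 CPM (median 2541). That is a log2 fold change of -0.17 ± 0.04 (adjusted p = 0.0012) with no overlap between the groups. The rises in this list were small. Camk2a changed by 0.16 ± 0.05 (adjusted p = 0.019), a call that was lost without PBS replicate 2, PBS replicate 3 or LPS replicate 5, where the adjusted p was 0.082, 0.063 and 0.069. Ppp1r1b, the DARPP-32 gene of striatal neurons, changed by 0.18 ± 0.06 (adjusted p = 0.014), and without PBS replicate 4 the adjusted p was 0.062. Nrgn, which holds calmodulin at the synapse, changed by -0.20 ± 0.07 (adjusted p = 0.034). Its lowest LPS libraries were replicates 1 and 2, at 1627 and 1812 CPM, and without both the change was -0.09 (adjusted p = 0.34). Its call was also lost without LPS replicate 1 or 2 or PBS replicate 5 or 6 alone, at adjusted p values from 0.068 to 0.12.

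Some receptor genes fell as well. Of 34 tested genes of the GABA system 12 fell and 0 rose, with a median of -0.12, and 9 fell in knockout. Without PBS replicate 4 the count of falls was 7, and without LPS replicates 4 to 6 it was 5. Cck, a peptide of interneurons and cortical neurons that is counted in this list, was at 324 to 417 CPM after PBS (median 361) and at 278 to 327 CPM after LPS (median 295). It fell by 0.29 ± 0.06 on the log2 scale in wild type (adjusted p = 0.00012), with a small overlap of the groups, and changed by -0.28 in knockout (adjusted p = 0.00029). Of 31 tested glutamate receptor genes 8 fell and 0 rose, but the count was 4 without PBS replicate 3 or without LPS replicate 6, 5 without PBS replicate 4 or LPS replicate 4, and 3 without LPS replicates 4 to 6. In the highest quintile of level 17.1% of all genes were called lower, and 28.0% of its longest genes. The list was not matched for level or span, so its count is not read as a trait of receptors. Grm5, the metabotropic receptor mGluR5, changed by -0.21 ± 0.05 (adjusted p = 0.0021), or by -0.17 (adjusted p = 0.066) without LPS replicates 4 to 6, and Olfm1, a secreted partner of AMPA receptors, by -0.28 ± 0.05 (adjusted p = 7.9e-06).

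Some genes of ion channels and the axonal cytoskeleton also fell. Of 61 tested voltage-gated and leak channel genes 16 fell and 1 rose, with a median of -0.09, and in knockout 12 fell and 0 rose. The count of falls was 10 without LPS replicates 4 to 6. As with the receptors, the list was not matched for level or span, and its count is not read as a trait of channels. The potassium channel Kcnh7 went from 54.4 to 62.6 CPM (median 61.6) to 39.6 to 49.1 CPM (median 46.1), a log2 fold change of -0.41 ± 0.08 (adjusted p = 7.1e-05) with no overlap. Kcna2, an axonal potassium channel, changed by -0.22 ± 0.05, Scn2a, a sodium channel of excitatory neurons, by -0.20 ± 0.05, and the calcium channel subunit Cacna2d3 by -0.31 ± 0.07. In knockout Kcnh7 changed by -0.32 (adjusted p = 0.0035), while Cacna2d3 stood at -0.0042 and was not called (adjusted p = 0.99). Of 44 tested cytoskeletal and axonal genes 19 fell and 0 rose, with a median of -0.12, and 13 fell in knockout. The neurofilament gene Nefm stood at 327 to 385 CPM after PBS (median 356) and at 263 to 337 CPM after LPS (median 288), with a log2 fold change of -0.29 ± 0.05 (adjusted p = 2.6e-05). The highest LPS library exceeded the lowest PBS library. Tubb2a, a neuronal tubulin, changed by -0.28 ± 0.05, and the growth cone gene Gap43 by -0.23 ± 0.05.

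Signalling through G proteins and cyclic AMP showed falls of a like size. Of 55 tested genes 18 fell and 3 rose, with a median of -0.10, and in knockout 14 fell and 5 rose. Without LPS replicates 4 to 6, 8 fell, and without PBS replicate 1, 5 rose. Adcy1 (chromosome 11, 7063489 to 7178506, GRCm38), the calcium-stimulated adenylyl cyclase of cortex and hippocampus, was at 414 to 494 CPM after PBS (median 456) and at 324 to 369 CPM after LPS (median 343). The groups were separate, with a log2 fold change of -0.38 ± 0.05 (adjusted p = 1.8e-08) and -0.25 in knockout (adjusted p = 0.00017). Rgs4 (chromosome 1, 169741477 to 169747642), which speeds the shut-off of G protein signals, stood at 271 to 316 CPM (median 311) and at 215 to 247 CPM (median 228). It changed by -0.41 ± 0.05 (adjusted p = 5.9e-08) in wild type and by -0.44 in knockout, again without overlap. The G protein subunits moved apart: Gnai1, common in neurons, changed by -0.31 ± 0.06 (adjusted p = 0.00018), or by -0.20 (adjusted p = 0.052) without LPS replicates 4 to 6. Gnai2, abundant in immune and vessel cells, rose by 0.64 ± 0.05 (adjusted p = 3.0e-13), from a median of 213 to 340 CPM.

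**Figure D4:**
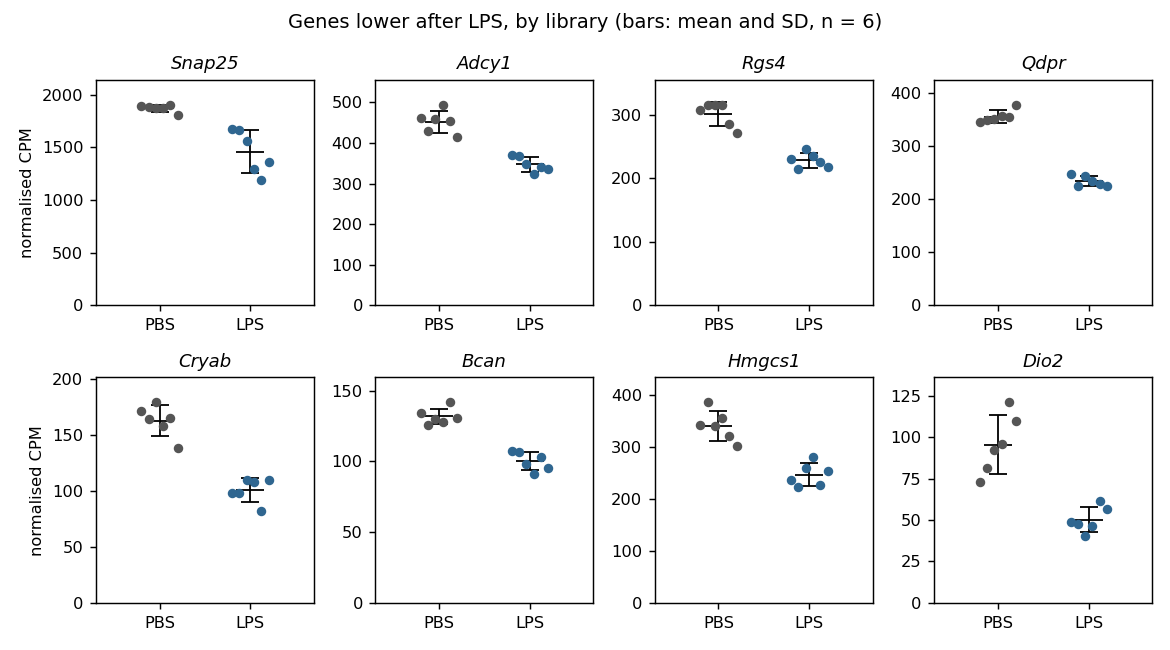
Normalised CPM of 8 genes that fell, in each of the 6 PBS (grey) and 6 LPS (blue) libraries, with bars for the mean and SD, and all axes starting at 0. In each panel all LPS libraries lie below all PBS libraries.

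Oligodendrocyte genes split. Of 49 tested myelin and oligodendrocyte genes 18 fell and 8 rose, with a median log2 fold change of -0.13, and in knockout 17 fell and 7 rose. The summed level of the list went the other way, from 11612 to 13171 CPM after PBS to 12389 to 14135 CPM after LPS, with rises of the abundant members Fth1 and Apod. Qdpr (chromosome 5, 45434021 to 45450236, GRCm38), the reductase that restores tetrahydrobiopterin for monoamine and nitric oxide synthesis and a gene strong in oligodendrocytes, was at 345 to 378 CPM after PBS (median 352) and at 224 to 247 CPM after LPS (median 232). Its log2 fold change was -0.60 ± 0.05 (adjusted p = 5.7e-13), and in knockout -0.56 (adjusted p = 9.7e-12). No LPS library came near the PBS range. Cryab, the small heat shock protein alpha-B-crystallin, went from 138 to 179 CPM (median 164) to 82.4 to 110 CPM (median 103), a change of -0.69 ± 0.07 (adjusted p = 3.5e-11). Car2, a carbonic anhydrase of oligodendrocytes, changed by -0.57 ± 0.07 and Bcas1, a marker of early myelinating cells, by -0.47 ± 0.05, and both were called lower in knockout. Mbp, myelin basic protein, stood at 1776 to 2045 CPM after PBS (median 1932) and at 1336 to 1852 CPM after LPS (median 1593), a change of -0.27 ± 0.05 (adjusted p = 0.00014) with overlap, and its knockout change of -0.12 was not called. The stress gene Ndrg1 changed by -0.48 ± 0.06.

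Among the myelin and oligodendrocyte genes that rose were Cldn11 and Apod. Cldn11, the claudin that seals the myelin sheath, went from 168 to 209 CPM (median 202) to 278 to 323 CPM (median 301), with a log2 fold change of 0.61 ± 0.05 (adjusted p = 3.4e-13). Apod, a lipid carrier made by oligodendrocytes, astrocytes and fibroblasts, went from 213 to 326 CPM (median 257) to 994 to 1244 CPM (median 1115). That is a log2 fold change of 2.05 ± 0.12 (adjusted p = 1.6e-18) in wild type and 2.09 in knockout. Of 20 tested precursor genes 4 fell and 2 rose. Cspg4, which also marks pericytes, changed by 0.63 ± 0.13 (adjusted p = 0.00026) and Gpr17, a receptor of committed precursors, by 0.45 ± 0.13 (adjusted p = 0.0091). Without PBS replicate 4, LPS replicate 1 and LPS replicate 2 together, the adjusted p of Gpr17 was 0.093.

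Single proteoglycan genes of brain matrix fell, while others rose, such as Cspg4 and decorin, given elsewhere. Bcan, Ncan and Cspg5 are called members of the matrix and precursor lists and were set together here after their values were seen. Bcan and Ncan encode brevican and neurocan, chondroitin sulfate proteoglycans around synapses, and Cspg5 encodes a membrane-bound relative. Bcan stood at 126 to 142 CPM after PBS (median 130) and at 91.0 to 107 CPM after LPS (median 100), a log2 fold change of -0.40 ± 0.06 (adjusted p = 2.5e-06). Ncan went from 151 to 178 CPM (median 160) to 105 to 135 CPM (median 122), a change of -0.41 ± 0.06, and Cspg5 from 248 to 260 CPM (median 254) to 132 to 220 CPM (median 193), a change of -0.42 ± 0.06. None of these genes had an LPS library inside the PBS range. All were called lower in knockout, with changes of -0.37, -0.55 and -0.38. Tnc, tenascin-C, went from 3.27 to 8.42 CPM (median 4.75) to 1.65 to 4.25 CPM (median 2.39), a change of -1.07 ± 0.25 (adjusted p = 0.0014).

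Genes of cholesterol synthesis fell. The brain makes its own sterols, from acetyl-CoA through mevalonate to lanosterol and cholesterol, and the enzymes are known targets of the transcription factor SREBP-2, which acts with the CCAAT-binding factor NF-Y. Of 39 tested genes of cholesterol and fatty acid synthesis 15 fell and 2 rose, with a median log2 fold change of -0.18, and in knockout 8 fell and 2 rose. Without PBS replicate 4, LPS replicate 1 and LPS replicate 2 together, 10 fell. Hmgcs1 (chromosome 13, 119690379 to 119708260, GRCm38), which makes HMG-CoA, was at 303 to 386 CPM after PBS (median 342) and at 223 to 281 CPM after LPS (median 245). Its log2 fold change was -0.47 ± 0.05 (adjusted p = 2.2e-09), equal in knockout at -0.47 (adjusted p = 3.3e-09), and the wild type groups did not overlap. Msmo1, a sterol demethylase, went from 109 to 145 CPM (median 118) to 75.6 to 89.3 CPM (median 82.2), a change of -0.56 ± 0.06 (adjusted p = 1.7e-09). Cyp51, the lanosterol demethylase, changed by -0.34 ± 0.07 (adjusted p = 0.00058) and Nsdhl, which acts after it, by -0.51 ± 0.11 (adjusted p = 0.00083). Elovl6, which lengthens saturated fatty acids, changed by -0.50 ± 0.08 in wild type (adjusted p = 4.5e-06) and by -0.16 in knockout, where it was not called. Against them, Elovl1 changed by 0.39 ± 0.11 (adjusted p = 0.0064), or by 0.34 (adjusted p = 0.094) without LPS replicates 4 to 6.

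The 250 bases before the annotated start of 4 of these sterol genes show how the CCAAT box is placed, and they are given because the genes moved together. The sequences are from RefSeq (GRCm38.p6), read on the strand of the gene, 5′ to 3′, and the start used is that of RefSeq. In GENCODE M21 Cyp51 runs from 4081145 to 4104746. By that annotation the end of its stretch, with the marked CCAAT, lies inside the gene. Capitals mark CCAAT on either strand, which reads ATTGG on the other one, and the sequences lie at chr13:119690101-119690350 (plus strand) for Hmgcs1, chr8:64733579-64733828 (minus strand) for Msmo1, chr5:4104698-4104947 (minus strand) for Cyp51 and chrX:72918271-72918520 (plus strand) for Nsdhl.
Hmgcs1: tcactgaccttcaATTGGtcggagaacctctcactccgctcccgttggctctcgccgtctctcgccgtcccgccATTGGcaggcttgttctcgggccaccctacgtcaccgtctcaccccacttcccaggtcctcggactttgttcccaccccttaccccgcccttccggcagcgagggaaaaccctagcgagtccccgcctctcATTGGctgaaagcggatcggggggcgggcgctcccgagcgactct
Msmo1: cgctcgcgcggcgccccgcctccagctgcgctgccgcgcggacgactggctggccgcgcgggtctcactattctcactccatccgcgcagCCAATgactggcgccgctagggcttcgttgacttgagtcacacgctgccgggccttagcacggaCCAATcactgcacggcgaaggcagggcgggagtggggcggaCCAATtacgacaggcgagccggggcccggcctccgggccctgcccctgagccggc
Cyp51: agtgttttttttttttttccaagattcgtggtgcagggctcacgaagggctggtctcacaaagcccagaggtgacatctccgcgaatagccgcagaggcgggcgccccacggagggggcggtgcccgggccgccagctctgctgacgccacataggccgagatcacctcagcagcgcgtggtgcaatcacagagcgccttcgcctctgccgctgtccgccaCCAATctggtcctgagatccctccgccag
Nsdhl: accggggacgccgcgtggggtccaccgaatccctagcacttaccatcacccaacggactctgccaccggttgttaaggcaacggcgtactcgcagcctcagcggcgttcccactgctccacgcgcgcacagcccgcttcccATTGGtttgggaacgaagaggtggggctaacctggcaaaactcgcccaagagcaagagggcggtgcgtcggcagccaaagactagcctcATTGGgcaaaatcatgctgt
CCAAT was found 3 times before Hmgcs1, 3 times before Msmo1, 1 time before Cyp51 and 2 times before Nsdhl. It was present in 7 of the 10 genes of the list that fell and have a promoter in the table (70.0%), in 20 of 29 tested members (69.0%) and in 36.0% of 10431 promoters of tested genes. Over all 32851 promoters of the table the share was 33.8%. The members that fell and the whole list held it at a like share. The sterol response element in the form TCACNCCAC, searched on both strands, occurred in 1 of the 29 promoters, that of Hmgcs1, where it does not overlap a CCAAT box, and in 0.911% of the promoters of tested genes. The median GC content was 65.2% in the promoters of members that fell and 60.4% in those of tested genes. A match is a description of the letters and shows no binding.

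Genes that move and store lipid went the other way from those that make it. Of 42 tested genes of lipid efflux, storage and transport 16 rose and 2 fell, with a median of 0.18, and 14 rose in knockout. Low genes such as Ch25h can pass the filter on low counts through the LPS libraries alone. Apoe, the main lipid carrier of the brain, went from 1091 to 1250 CPM (median 1180) to 1658 to 1847 CPM (median 1773), a log2 fold change of 0.60 ± 0.04 (adjusted p = 3.0e-15). Npc2, which takes cholesterol out of lysosomes, went from 126 to 152 CPM (median 139) to 212 to 244 CPM (median 234), a change of 0.73 ± 0.05. Ch25h, which makes 25-hydroxycholesterol, a known inhibitor of sterol synthesis, was at 0 to 0.85 CPM after PBS (median 0.359, 9 counts in all) and at 3.69 to 13.2 CPM after LPS (median 8.58, 201 counts), a change of 4.49 ± 0.38. The lipid droplet gene Plin2 changed by 1.21 ± 0.19 (adjusted p = 2.9e-06). Of the 2 that fell, Fabp7, a fatty acid binding protein of astrocytes and olfactory ensheathing cells, went from 40.0 to 77.6 CPM (median 54.0) to 16.3 to 57.9 CPM (median 27.2). That is a change of -0.81 ± 0.18 (adjusted p = 0.00066) with overlapping groups. In the libraries low in olfactory genes, Fabp7 stood at 19.3 CPM in LPS replicate 1, 16.3 CPM in LPS replicate 2 and 40.0 CPM in PBS replicate 4. The last was the lowest value of the PBS group. LPS replicate 5, which was not low in olfactory genes, was at 18.1 CPM. The part of olfactory tissue in the fall of Fabp7 was not tested.

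Astrocyte genes rose more often than they fell. Of 44 tested identity genes 17 rose and 6 fell, with a median of 0.05, and in knockout 12 rose and 4 fell. Clu (chromosome 14, 65968483 to 65981547, GRCm38), a secreted chaperone and lipid carrier, went from 382 to 406 CPM (median 399) to 670 to 725 CPM (median 691). Its log2 fold change of 0.81 ± 0.04 (adjusted p = 6.3e-20) was the rise under 1 with the smallest p among genes outside the immune lists, and both groups were tight. The metallothionein Mt1, which binds zinc and copper, went from 533 to 632 CPM (median 555) to 1048 to 1277 CPM (median 1192), a change of 1.06 ± 0.05 (adjusted p = 2.5e-20). Mt2 changed by 0.82 ± 0.06 and Mt3, the neural member, by 0.67 ± 0.07. The near-identical sequence of metallothioneins means that reads could have been split between them. Id3, a BMP target, changed by 1.13 ± 0.08 and Ndrg2 by 0.44 ± 0.05. The glutamate transporter Slc1a2, among the most abundant messengers that fell, went from 2167 to 2283 CPM (median 2242) to 1887 to 2103 CPM (median 1993). That is a change of -0.16 ± 0.04 (adjusted p = 0.0079) with no overlap, while its knockout change of -0.07 was not called (adjusted p = 0.41).

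Single genes of thyroid hormone and retinoid handling changed, in both directions. Dio2 (chromosome 12, 90724552 to 90738438, GRCm38) encodes the astrocyte and tanycyte deiodinase that turns thyroxine into active triiodothyronine. It was at 72.9 to 121 CPM after PBS (median 94.0) and at 40.5 to 61.5 CPM after LPS (median 48.1), a log2 fold change of -0.92 ± 0.09 (adjusted p = 5.5e-11) and of -0.60 in knockout (adjusted p = 2.2e-06). The groups did not overlap. Slco1c1, a carrier that brings thyroxine across the vessel wall, went from 28.4 to 36.7 CPM (median 29.9) to 47.3 to 56.2 CPM (median 51.8), a change of 0.73 ± 0.08 (adjusted p = 2.2e-09). In the same libraries 33 of 41 tested endothelial genes rose, with a median of 1.10, and their part in the rise of Slco1c1 was not tested. Stra6, the receptor that takes up retinol, went from 1.30 to 4.49 CPM (median 2.44) to 4.61 to 12.1 CPM (median 6.45), a change of 1.44 ± 0.28 (adjusted p = 0.00015). Over the whole list of 27 tested thyroid and retinoid genes 6 rose and 5 fell, and without LPS replicates 4 to 6 the count of rises was 3.

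Vessel genes rose as a group. Of 41 tested endothelial genes 33 rose and 0 fell, with a median of 1.10, and the summed level was 1208 to 1377 CPM after PBS and 2154 to 2438 CPM after LPS. Of 32 tested transporters of the blood-brain barrier 18 rose and 0 fell, with a median of 0.37, and 16 rose in knockout. The glucose transporter Slc2a1 went from 60.2 to 75.2 CPM (median 71.7) to 117 to 150 CPM (median 125), a log2 fold change of 0.89 ± 0.06 (adjusted p = 2.4e-15) and 0.87 in knockout. Slc7a5, which carries large neutral amino acids, went from 57.7 to 87.0 CPM (median 68.8) to 115 to 142 CPM (median 134), a change of 0.93 ± 0.08. The drug pump Abcb1a changed by 1.07 ± 0.08 and the organic anion carrier Slco1a4 by 1.09 ± 0.08, each with no overlap between the groups. Since genes of endothelial identity rose beside them, more vessel cells and more RNA per vessel cell cannot be told apart.

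The vessel wall and its matrix moved in the same direction. Of 30 tested mural cell and fibroblast genes 16 rose and 1 fell, with a median of 0.46 and a summed level of 1480 to 1647 CPM after PBS and 1610 to 1994 CPM after LPS. The count of rises was 10 without LPS replicates 4 to 6, and also 10 with a filter at a mean of 10 CPM. Low genes can pass the main filter through the LPS libraries alone, in this list too. Rgs5, a pericyte gene, changed by 0.78 ± 0.07 and Dcn, the fibroblast proteoglycan decorin, by 1.29 ± 0.10. Of 52 tested matrix and protease genes 19 rose and 6 fell, with a median of 0.24. Sparc, a matrix-binding protein of vessels and microglia, went from 694 to 831 CPM (median 803) to 1246 to 1810 CPM (median 1640), a log2 fold change of 1.03 ± 0.06 (adjusted p = 1.4e-17). The basement membrane collagens Col4a1 and Col4a2 changed by 1.57 ± 0.11 and 1.31 ± 0.12, and fibronectin, Fn1, by 1.60 ± 0.10. Igfbp7 went from 14.7 to 23.1 CPM (median 20.5) to 83.9 to 127 CPM (median 119), a change of 2.49 ± 0.10 (adjusted p = 3.6e-24). Angpt2, which loosens the endothelium, went from 0.638 to 2.60 CPM (median 1.85) to 5.94 to 11.4 CPM (median 6.75), a change of 2.16 ± 0.26 (adjusted p = 6.8e-09).

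**Figure D5:**
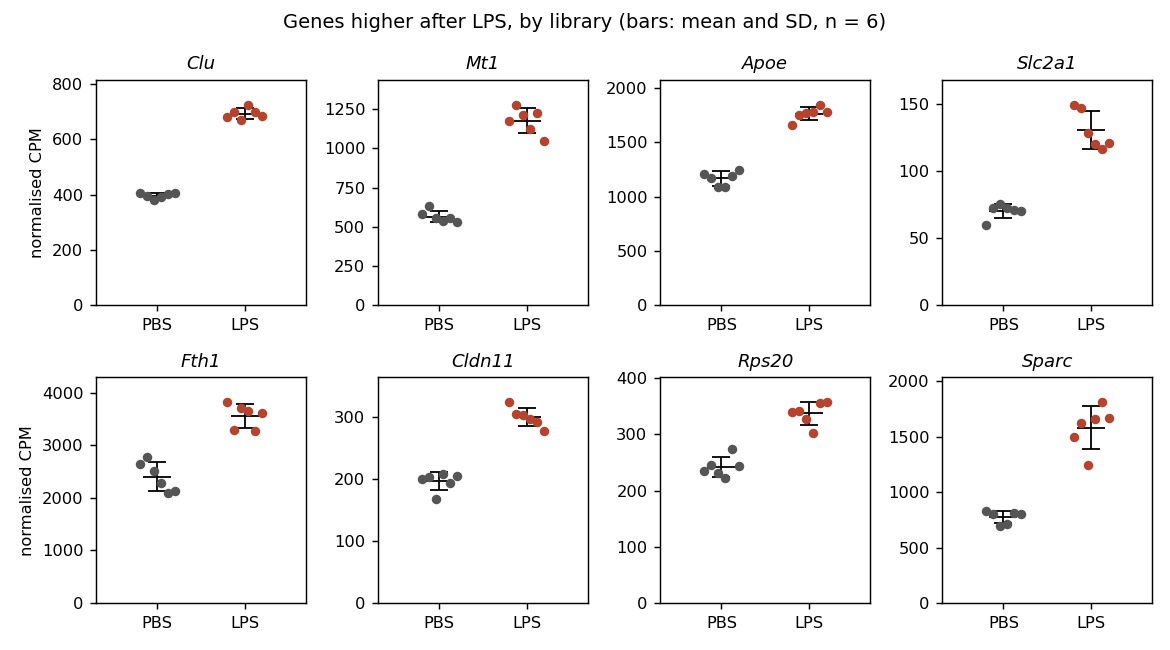
Normalised CPM of 8 genes outside the top inflammatory genes that rose, in each of the 6 PBS (grey) and 6 LPS (red) libraries, with bars for the mean and SD, and all axes starting at 0. In each panel all LPS libraries lie above all PBS libraries.

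Genes of iron handling and antioxidant defence rose more often than they fell. Of 34 tested genes of iron, haem and metal handling 20 rose and 1 fell, with a median of 0.44, and in knockout 14 rose and 0 fell. The list shares metallothioneins with the astrocyte list and holds macrophage genes. With a filter at a mean of 10 CPM, 12 of its genes were called higher. Low genes can pass the main filter through the LPS libraries alone, so nothing is read from the share of this list called. Fth1, the heavy chain of ferritin that stores iron, went from 2087 to 2781 CPM (median 2392) to 3272 to 3810 CPM (median 3624), a log2 fold change of 0.56 ± 0.06 (adjusted p = 5.3e-11). Cp, the ferroxidase ceruloplasmin, went from 11.7 to 16.5 CPM (median 14.9) to 60.9 to 92.5 CPM (median 81.6), a change of 2.40 ± 0.12. Of 41 tested antioxidant genes 15 rose and 1 fell, with a median of 0.25. Gpx3, a secreted glutathione peroxidase, went from 9.52 to 14.5 CPM (median 11.6) to 49.6 to 69.5 CPM (median 64.9), a change of 2.37 ± 0.13 (adjusted p = 3.7e-19). Selenop, which carries selenium to the brain, changed by 0.80 ± 0.05, Gpx1 by 0.79 ± 0.07 and Prdx6 by 0.68 ± 0.06. Slc7a11, the cystine carrier that feeds glutathione synthesis, changed by 0.67 ± 0.10 (adjusted p = 4.2e-07). All 7 of these genes were called higher in knockout as well.

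The machinery that makes and folds proteins moved in both directions. Of 68 tested cytosolic ribosomal protein genes 26 rose and 1 fell, with a median of 0.23, and in knockout 15 rose and 0 fell. Many ribosomal protein genes have processed pseudogenes, so the counts of single members are uncertain. Rps20 went from 222 to 274 CPM (median 239) to 303 to 357 CPM (median 340), a log2 fold change of 0.48 ± 0.05 (adjusted p = 7.8e-10). Rps14 changed by 0.47 ± 0.05, Rplp0 by 0.52 ± 0.06 and Rps9 by 0.49 ± 0.07, with separate groups for Rps14, Rplp0 and Rps9 too. Of 39 tested heat shock and chaperone genes 10 fell and 3 rose, with a median of -0.09, and in knockout 11 fell and 0 rose. Hsph1, a partner of HSP70, went from 201 to 241 CPM (median 220) to 142 to 195 CPM (median 167), a change of -0.40 ± 0.06 (adjusted p = 4.9e-06). Hsp90aa1, the stress-induced HSP90, went from 219 to 281 CPM (median 254) to 192 to 222 CPM (median 200), a change of -0.31 ± 0.05 (adjusted p = 1.3e-05), with a knockout change of -0.24 (adjusted p = 0.00097). The 3 that rose were small heat shock proteins: Hspb1 changed by 0.86 ± 0.18, Hspb8 by 0.41 ± 0.10 (0.32 without LPS replicates 4 to 6, adjusted p = 0.098) and Hspb6, named after its value was seen, by 0.77 ± 0.21. Of 46 tested endoplasmic reticulum genes 10 rose and 2 fell, with a median of 0.03, and 5 rose without LPS replicates 4 to 6. P4hb, a disulfide isomerase, changed by 0.41 ± 0.07 and the stress factor Atf5 by 0.53 ± 0.09, and the knockout change of Atf5 was not called (adjusted p = 0.33). Of 62 lysosomal and autophagy genes 22 rose and 3 fell, with a median of 0.13.

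Few genes of oxidative phosphorylation were called. Of 72 tested nuclear genes of oxidative phosphorylation 6 fell and 2 rose, with a median of -0.04. Without PBS replicate 6 the count of falls was 12, and without LPS replicate 5 it was 3. Without LPS replicates 4 to 6, the libraries low in mitochondrial messengers, it was 1. Cox7b, a subunit of cytochrome oxidase, went from 196 to 235 CPM (median 212) to 151 to 200 CPM (median 180), a log2 fold change of -0.26 ± 0.06 (adjusted p = 0.00046). Atp5b, the catalytic subunit of ATP synthase, changed by -0.18 ± 0.04, and Cycs, cytochrome c, by -0.36 ± 0.10 (adjusted p = 0.0079). Without LPS replicates 4 to 6 the calls of Cox7b, Atp5b and Cycs were lost, at changes of -0.16, -0.14 and -0.36 and adjusted p values of 0.10, 0.077 and 0.061. Of 8 tested messengers of the mitochondrial genome 3 fell and 1 rose, and without LPS replicates 1 and 2 the count of falls was 7. It was 5 without LPS replicate 1, LPS replicate 2 or PBS replicate 6 alone and 1 without LPS replicates 4 to 6. mt-Nd1 was at 6942 to 9123 CPM after PBS (median 8358) and at 5056 to 7758 CPM after LPS (median 6507), a change of -0.35 ± 0.08 (adjusted p = 0.0012), and mt-Nd2 changed by -0.34 ± 0.06. In knockout mt-Nd1 and mt-Nd2 changed by -0.05 and -0.16 and neither was called. Without LPS replicates 4 to 6 the wild type changes were -0.16 for mt-Nd1 (adjusted p = 0.21) and -0.21 for mt-Nd2 (adjusted p = 0.036). mt-Nd3 changed by -0.77 ± 0.26 (adjusted p = 0.035), with 1.54 CPM in LPS replicate 5, and without that library the change was -0.56 (adjusted p = 0.086). Its call was also lost without LPS replicate 4 or 6 or PBS replicate 1, 2 or 3, at adjusted p values from 0.063 to 0.11, and without LPS replicates 4 to 6 the change was -0.18 (adjusted p = 0.73). Hk2, a hexokinase of stressed and immune cells, went from 5.19 to 9.99 CPM (median 8.35) to 13.4 to 22.8 CPM (median 17.3), a change of 1.13 ± 0.15 (adjusted p = 4.5e-08), and Idh2, a mitochondrial dehydrogenase that makes NADPH, changed by 0.55 ± 0.09. Of 32 tested genes of glycolysis and glycogen 7 rose and 4 fell, and the count of falls was 1 without PBS replicate 3 and 2 without PBS replicate 4 or LPS replicate 4, 5 or 6.

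Glucocorticoid response genes rose more often than they fell, and clock genes changed in both directions. Of 34 tested glucocorticoid response genes 13 rose and 3 fell, with a median of 0.13, and some of them, such as the metallothioneins, respond to cytokines too. Without LPS replicate 2, or without LPS replicates 1 and 2, 5 fell. The genes that fell with all libraries included Klf9 and Nr3c2, whose values are not given here. Cebpd went from 10.1 to 13 CPM (median 10.9) to 19.9 to 34.1 CPM (median 26.8), a log2 fold change of 1.25 ± 0.13 (adjusted p = 3.0e-10), and Galnt15 changed by 1.23 ± 0.15. Of 24 tested clock genes 5 rose and 3 fell in wild type, and 0 were called in knockout. The count of rises was 2 without PBS replicate 1 and 3 without LPS replicate 1, LPS replicate 2 or PBS replicate 2. The count of falls was 1 without PBS replicate 1, PBS replicate 2, LPS replicate 2 or LPS replicate 6. Arntl (chromosome 7, 113207465 to 113314126, GRCm38), which encodes the clock activator BMAL1, went from 34.2 to 46.1 CPM (median 39.6) to 23 to 28.9 CPM (median 25.9). Its change was -0.62 ± 0.11 (adjusted p = 2.6e-05) with no overlap, and -0.19 in knockout, which was not called (adjusted p = 0.33). Tef, a clock output factor, changed by 0.31 ± 0.06 (adjusted p = 0.00032). Dbp, another output factor, changed by 0.43 ± 0.13 (adjusted p = 0.017), and without PBS replicate 1 or LPS replicate 2 the adjusted p was 0.061 and 0.051. Nfil3, a repressor of the same targets, changed by -0.45 ± 0.16 (adjusted p = 0.036), a call that was lost without LPS replicate 1, 2 or 6 or PBS replicate 1 or 2, at adjusted p values from 0.064 to 0.16. The hour of collection is not given in the sources used here.

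The hypothalamic peptides vasopressin and oxytocin rose in wild type, and oxytocin was not called in knockout. Of 34 tested neuropeptide genes 6 fell and 5 rose. Avp, vasopressin, was at 2.00 to 10.8 CPM after PBS (median 7.15) and at 13.8 to 23.6 CPM after LPS (median 20.3), with 175 and 416 counts in all. Its log2 fold change was 1.40 ± 0.26 (adjusted p = 6.8e-05), the groups did not overlap, and in knockout it was 0.89 (adjusted p = 0.0053). Oxt, oxytocin, which lies beside Avp on the chromosome, went from 0.865 to 12.1 CPM (median 8.79) to 7.29 to 38.5 CPM (median 18.2), a change of 1.27 ± 0.37 (adjusted p = 0.011). Its highest value was in LPS replicate 2, and without that library the change was 0.93 (adjusted p = 0.076). In knockout Oxt changed by 0.38 (adjusted p = 0.56). Of 35 tested genes of thalamus, hypothalamus and midbrain 5 rose and 2 fell, and the rises included both peptides. Without LPS replicate 2 the count of rises was 3, without LPS replicates 1 and 2 it was 2, without PBS replicate 4 as well it was 1, and without LPS replicates 4 to 6 it was 2. Bdnf, the neurotrophin of forebrain neurons, changed by -0.41 ± 0.09 (adjusted p = 0.00073), from a median of 59.4 to 41.8 CPM. Junb, an immediate early gene, rose by 0.64 ± 0.13 (adjusted p = 0.00014), and the knockout changes of Bdnf and Junb, -0.17 and 0.06, were not called.

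Some genes of cell division and the actin network rose, and others of the actin network fell. Of 32 tested cell cycle genes 10 rose and 2 fell, with a median of 0.26. Most had low counts: Cdk1, the mitotic kinase, went from 0 to 1.14 CPM (median 0.703) to 1.84 to 6.20 CPM (median 4.43), a log2 fold change of 2.7 ± 0.42 (adjusted p = 3.0e-06). Top2a changed by 1.64 ± 0.29 and the replication gene Mcm3 by 1.26 ± 0.21. Low genes can pass the filter through the LPS libraries alone, so nothing is read from the share of cell cycle genes called. With a filter at a mean of 10 CPM, 2 cell cycle genes were called higher. The summed level of the list was 1139 to 1268 CPM after PBS and 1036 to 1294 CPM after LPS. Of 51 tested genes of small GTPases and actin 16 rose and 9 fell, with a median of 0.08, and 4 fell without LPS replicates 4 to 6. Arpc1b, an actin-branching subunit of blood cells and microglia, went from 20.4 to 23.6 CPM (median 22.1) to 59.6 to 93.8 CPM (median 74.0), a change of 1.82 ± 0.10, and Msn, moesin, changed by 1.45 ± 0.10. The actin-binding genes Cotl1 and Tmsb4x changed by 0.92 ± 0.06 and 0.69 ± 0.06. Microglia and macrophage genes rose in the same libraries, as given above, and their part in these rises was not tested.

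Some functions held few called genes. Of 52 tested chromatin and transcription regulators 2 rose and 0 fell, with a median of 0.02, and in knockout 0 were called. Of 54 tested RNA splicing and binding genes 5 rose and 5 fell, and the count of falls was 1 without LPS replicate 6 and 3 without any of LPS replicates 2, 4 and 5 and PBS replicates 1, 3, 4 and 5 alone. Of 36 tested genes of monoamine and acetylcholine transmission 3 rose and 0 fell, with a median of -0.06, and of 39 tested genes of cilia and ependyma 1 rose and 2 fell. Trophic factors and receptors held more, with 9 of 44 tested genes lower and 7 higher, or 4 higher without PBS replicate 3 and 5 lower without LPS replicates 4 to 6. Fgfr2, a receptor strong in glia, changed by -0.49 ± 0.10 (adjusted p = 0.00039).

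Besides the globin genes, the largest falls included several genes of low level, while Dio2, described above, stood at a median of 94.0 CPM after PBS. Gkn3, an arterial endothelial gene, went from 2.84 to 8.24 CPM (median 4.83, 129 counts in all) to 0 to 1.46 CPM (median 0.987, 20 counts), a log2 fold change of -2.51 ± 0.37 (adjusted p = 9.6e-07), while 33 of 41 tested endothelial genes rose. Tnnc1, slow troponin C, changed by -1.44 ± 0.23. Etv4, an ETS factor downstream of FGF and ERK signalling, went from 12.5 to 15.4 CPM (median 14.7) to 5.96 to 8.61 CPM (median 6.47), a change of -1.04 ± 0.15 (adjusted p = 2.6e-07) and of -1.06 in knockout. Serpinb1a, an inhibitor of neutrophil proteases, fell by 0.98 ± 0.15, although neutrophil genes rose. Nrep and Zfp365 were among the falls under 1 with the smallest p. Nrep went from 216 to 286 CPM (median 245) to 138 to 179 CPM (median 154), a change of -0.69 ± 0.07, and Zfp365 from 207 to 251 CPM (median 242) to 152 to 175 CPM (median 162), a change of -0.54 ± 0.05. Ephb1, a receptor for ephrins, changed by -0.54 ± 0.07 and Pcp4, a calmodulin-binding peptide, by -0.39 ± 0.05, and the groups of Ephb1 and Pcp4 were separate.

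The largest rises outside the immune lists were in genes with few counts after PBS. Wfdc21 and Wfdc17, small secreted proteins of myeloid cells, had 5 and 17 counts in all after PBS and 174 and 345 after LPS. Their log2 fold changes were 5.04 ± 0.50 and 4.41 ± 0.37. Chil3, a chitinase-like protein of neutrophils and macrophages, changed by 4.91 ± 0.55, with 21.4 CPM in LPS replicate 6 and 5.65 CPM in the lowest. Ctla2a, a cysteine protease inhibitor, went from 1.73 to 6.54 CPM (median 4.44) to 48.6 to 69.1 CPM (median 60.6), a change of 3.72 ± 0.16 (adjusted p = 4.8e-23) and of 3.21 in knockout. Clec14a, an endothelial surface protein, went from 1.14 to 2.88 CPM (median 2.01) to 14.4 to 26.2 CPM (median 21.4), a change of 3.34 ± 0.19. Among the moderate rises, Pbxip1 went from 71.4 to 86.1 CPM (median 78.5) to 131 to 164 CPM (median 154), a change of 0.93 ± 0.06 (adjusted p = 2.3e-16).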

How the data were processed

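Whole-number counts of 3′ tags per gene, from QuantSeq 3′ libraries made with 100 ng of RNA, were made by the authors before deposit with STAR 2.7.3a and featureCounts of Subread 2.0.0 on mm10 (GRCm38), per the submitters' processing notes. Annotation release, strand setting and multi-mapping reads: not given in the sources used here. All 24 libraries entered a fit with edgeR 4.0.16 (R 4.3.3): 4 group means, TMM factors, filterByExpr with a minimum count of 10, the quasi-likelihood F test with 20 residual degrees of freedom and Benjamini-Hochberg adjustment over 14380 genes, with calls at an adjusted p under 0.05. The fit was tested on simulated data. Errors of fold changes are SE. Positions are from GENCODE M21 and promoters from RefSeq. The 267 identifiers without a symbol were kept.

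Members and the 56 lists (2200 symbols, 7 not matched, 1981 tested) were chosen with earlier results of these data known. Genes were named by rule: the 12 largest falls, the 20 falls under 1 with the smallest p, the 12 most abundant falls, the 12 rises under 1 with the smallest p and the 12 largest rises outside immune lists, and in each list up to 6 called members in its main direction and up to 2 in the other. Predicted genes were counted only, and the text leaves some named genes out; some items are not reported here. Alternatives were DESeq2 1.42.0, limma-voom 3.58.1, other scalings and filters, and left-out libraries.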

Additional observations from a re-analysis of the deposited data

Results flagged for a closer look

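In each group of 6 libraries the gap between the highest or lowest value and its nearest neighbour was compared with the whole range. Of 262 groups examined for the genes named with a value, 13 had a gap above Dixon's 95% critical value for 6 samples, and chance flags about 1 in 20 groups. After PBS, replicate 6 was apart in Snap25 (1807 CPM, lowest), Qdpr (378 CPM, highest), Cyp51 (70.9 CPM, lowest) and Rps14 (440 CPM, highest). Replicate 3 was apart in Bcas1 (210 CPM, lowest), Cldn11 (168 CPM, lowest) and Ndrg1 (142 CPM, highest), which are all oligodendrocyte genes. Replicate 1 was apart in Slc2a1 (60.2 CPM, lowest). After LPS, replicate 2 was apart in Scn2a (305 CPM, highest), Mt2 (1403 CPM, highest) and Angpt2 (11.4 CPM, highest), replicate 5 in Camk2a (1996 CPM, highest) and replicate 6 in Chil3 (21.4 CPM, highest).

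The LPS change of Cybb differed between the genotypes by -3.90 on the log2 scale, knockout minus wild type, in the test of that difference. Cybb encodes the subunit named by the knockout label, and in knockout it stood at a mean of 67.8 CPM after PBS and 72.0 CPM after LPS, against 1.49 and 24.7 CPM in wild type.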

How the results depend on the processing

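Under 13 other settings and with each of the 12 libraries left out, counts of rises stayed between 1080 and 1716 and counts of falls between 551 and 1194, and 0 called genes changed sign where both fits tested them. With 1 library left out, rises numbered 1395 to 1658 and falls 800 to 1096, and changes over 1 numbered 511 to 551 and 13 to 19. Falls over 1 numbered 64 without a filter on low counts, 2 with a filter at a mean of 10 CPM, 9 with the 12 wild type libraries alone, 25 without LPS replicates 1 and 2, 22 without PBS replicate 4 as well and 23 without LPS replicates 4 to 6, where 551 genes fell in all. Rises over 1 numbered 171 with the filter at 10 CPM. The share of rises with the same sign in knockout was 94.1% without a filter, 90.6% at 10 CPM, 85.9% without LPS replicates 1 and 2, 89.3% without PBS replicate 4 as well, 98.7% without LPS replicates 4 to 6, and 89.4 to 95.0% with 1 library left out. The share of falls was 87.7% at 10 CPM, 81.7%, 80.4% and 96.6% without the same sets of libraries, and 86.4 to 93.8% with 1 left out. The causes were not tested. Of 131 genes named with a value 16 lost their call in at least 1 alternative, among them Dbp, Oxt and mt-Nd3 with DESeq2 (adjusted p = 0.095, 0.052 and 0.24), and 0 changed sign. Leaving out PBS replicate 4 with LPS replicates 1 and 2, leaving out LPS replicates 4 to 6, and fitting the knockout alone were chosen after seeing the data. Other scalings moved the median of all genes by less than 0.02, and rises were 57.0 to 62.7% of calls against 60.6%.

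The labels do not say that replicate numbers pair the animals, and the weak correlations below cannot decide it. Correlations of same-numbered deviations were -0.05 to 0.13 over 10091 genes, and 2 of 6 libraries matched their own number best. With a replicate block, 1575 genes rose and 1063 fell.

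At 2.34 to 5.26 counts per CPM, changes in genes of a few CPM rest on few counts. Of the quintile of genes with the lowest level 1.46% were called lower, against 17.1% of the highest.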
